A study of Mus musculus with 50 samples.

Results

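Rcc1, Trmo, Kctd1, Shox2 and Myo1c are 5 genes whose translational efficiency differed between mouse fibroblasts given a high dose of the eIF4E inhibitor 4Ei-1 and the same cells without it. They were chosen by that difference. Among genes detected on every array of the comparison, Rcc1, Trmo, Kctd1 and Shox2 had an adjusted p below 0.05 at 200 µM, and Kctd1 and Myo1c had one at 100 µM. The adjustment was over all genes tested. Among all those genes, ordered by p, Rcc1 ranked 3, Trmo 22, Kctd1 31 and Shox2 49 at 200 µM. At 100 µM Kctd1 ranked 17 and Myo1c 30. They are 5 of 19057 genes on the array, are read by 11 of its 45281 probes, and are among the 12644 genes bright enough to be tested. Values of the 5 genes in these 2 comparisons are therefore descriptions, given with no test, and so are their values in all comparisons that share the drug-free cultures.

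The cells were derivatives of NIH 3T3, a mouse fibroblast line. In the inducible derivative the steroid mifepristone switches on extra eIF4E, and a non-inducible derivative served as control. Polysome-associated RNA (the gradient fraction titled heavy) and total RNA of each of 25 cultures were hybridised to separate Illumina bead arrays, 50 in all. The 4 processing batches named in the labels did not hold the groups evenly. The inducible line was measured without mifepristone (here called uninduced) and with it (induced). Induced cells had no drug, 4Ei-1 at 10, 50, 100 or 200 µM, or its less potent analog 4Ei-4 at 200 µM. The non-inducible line, which got no drug, was measured with mifepristone and without it. RNA was taken after 4 h of treatment, and every group was exposed to cycloheximide, which holds ribosomes on mRNA. Each group had 3 cultures except the non-inducible line without mifepristone, which had 1. The labels do not say whether replicates were separate cultures grown apart, or whether either derivative is a single clone, so each p-value measures the spread among these samples, which may be technical.

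eIF4E binds the cap at the 5′ end of mRNAs and recruits the factors that bring the small ribosomal subunit to them. mRNAs differ in how much they depend on it: those with structured leaders are known as sensitive to its level, and those that begin with an oligopyrimidine tract are known as targets of mTOR signalling. An mRNA loaded with many ribosomes sediments in heavy polysomes, so the ratio of polysome to total RNA is used as a measure of translational efficiency.

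The 5 proteins have unrelated roles. RCC1 is the chromatin-bound exchange factor that loads the small GTPase Ran with GTP and so sets the direction of nuclear transport. TRMO is a methyltransferase that completes a modified adenosine next to the anticodon of some tRNAs. KCTD1 is a BTB-domain protein that represses AP-2 transcription factors, SHOX2 is a homeodomain transcription factor of limb and heart development, and MYO1C is a class I myosin that links membranes to actin.

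The first 30 bases of annotated transcripts are shown for 4 of these genes because the cap and the bases beside it are what eIF4E and its partners meet. They come from RefSeq, build GRCm38.p6, run 5′ to 3′ on the gene's strand, and carry in capitals an unbroken run of at least 5 pyrimidines (C or T) that starts at the first base. No start is printed for Kctd1.
Rcc1, chr4:132345721-132345750, minus strand: CCCTTCTggccagggtcgcggccggaggcc
Trmo, start 1, chr4:46389394-46389423, minus strand: ggcgcgcggacgactcagcggcctgtaacc
Trmo, start 2, chr4:46389408-46389437, minus strand: ggaaatcagcgttgggcgcgcggacgactc
Shox2, chr3:66981742-66981771, minus strand: CCTCCTCTTacttctttttctccttctact
Myo1c, start 1, chr11:75650519-75650548, plus strand: agacctggactgctccagctgtgtcctgag
Myo1c, start 2, chr11:75652150-75652179, plus strand: gtgggttatggaatctccagcaagtgccta
Myo1c, start 3, chr11:75656015-75656044, plus strand: ccggccaggccggctgcagtgggtcctagg

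Rcc1 and Shox2, of which the first was higher and the second lower in efficiency at 200 µM, both begin with such a run, of 7 and 9 pyrimidines. A start of C followed by at least 4 pyrimidines was present in 2.51% of the 32851 annotated starts. In Shox2, 28 of the 30 bases were pyrimidines, a number reached by 0.103% of starts. The starts of Trmo and Myo1c have no such run. GC content of the first 50 bases was 78% in Rcc1, 68% and 66% in Trmo, 42% in Shox2 and 60%, 52% and 76% at the 3 starts of Myo1c, with a median of 56% over all starts. The annotated start need not be the one used in these cells, and a match in letters is a description of the sequence only.

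Arrays had a mean intensity of 183 to 436 and detected between 23.9% and 39.9% of probes. Of 9 fibroblast markers on the array, 8 were detected on all 50 arrays, and none of the 17 epithelial, leukocyte, endothelial and muscle markers was detected on all of them. The most often detected of each kind were Krt14 (24 arrays), Csf1r (32), Kdr (22) and Des (29). In each kind 2 markers were detected on fewer than 3 arrays. Eif4e itself was detected on 17 of the 50 arrays. Below, values are log2 signals after background correction and quantile normalization, and efficiency is the log2 polysome signal of a culture less its log2 total signal. Values are listed in the order of replicates 1, 2 and 3, and differences are log2 ± SE. Changes of amount per cell and of the share of cells cannot be told apart in such bulk RNA. Quantile normalization also removes any change common to all genes of a fraction.

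Rcc1 (gene ID 100088) is read by 1 probe, detected on all 50 arrays. Without drug its efficiency was -0.20, -0.79 and 0.02. At 200 µM 4Ei-1 it was 1.56, 0.25 and 0.86, above every drug-free culture although replicate 2 stood well under the other cultures. The difference with batch as a term was 1.59 ± 0.27, made of 0.87 ± 0.24 on polysomes and -0.73 ± 0.17 in total RNA. Polysome signal was 6.41, 6.10 and 6.06 without drug and 7.46, 6.51 and 7.03 at 200 µM. Total signal was 6.62, 6.89 and 6.04 without drug and 5.91, 6.26 and 6.17 at 200 µM, so total RNA overlapped and polysome RNA did not.

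Rcc1 did not follow the dose in order. Efficiency was 0.34, 0.37 and 0.36 at 10 µM. It was 0.81, 0.41 and 0.67 at 50 µM, and 0.73, -0.06 and -0.11 at 100 µM. The cultures at 100 µM overlapped those without drug, and their total signal of 6.12, 6.76 and 6.55 lay within the drug-free range. With batch as a term the efficiency of Rcc1 at 100 µM differed from no drug by 0.89 ± 0.27, and within batches 1 and 2 by 0.93 and 0.71. With 4Ei-4 efficiency was 0.85, 0.61 and 0.79, inside the range at 200 µM 4Ei-1. It was -0.49, 0.70 and -0.06 in uninduced cells, the widest spread among groups outside the chosen comparisons, where replicate 1 came from batch 1 and the other cultures from batch 3. The non-inducible line had -0.15, 0.49 and 0.45 with mifepristone and 0.15 without. Ordered by mean, the groups of 3 ran from no drug (-0.32) over uninduced (0.05), 100 µM (0.19), non-inducible (0.26), 10 µM (0.36), 50 µM (0.63) and 4Ei-4 (0.75) to 200 µM (0.89), and of the 7 neighbouring pairs only 10 and 50 µM did not overlap.

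**Figure D1:**
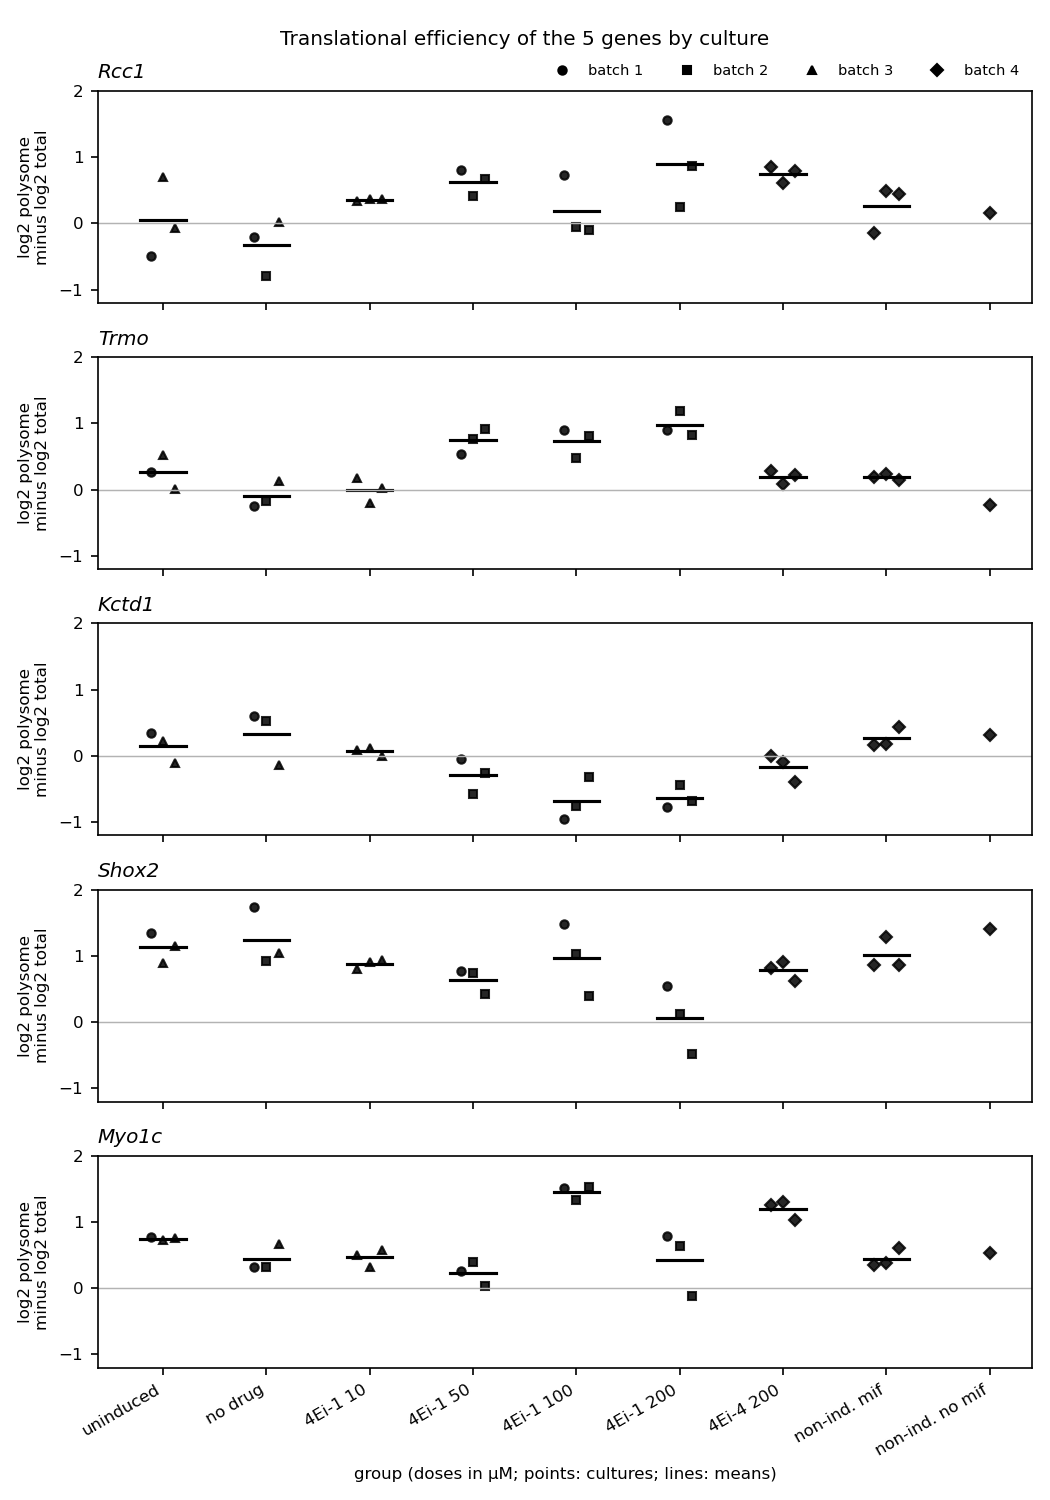
Translational efficiency (log2 polysome minus log2 total signal, vertical axis) of the 5 genes in each culture, by group, with doses in µM; points are cultures, shapes mark the 4 processing batches and lines are group means. Rcc1 and Trmo lie highest at 200 µM 4Ei-1, Kctd1 lies below 0 in every culture at 50 to 200 µM, Shox2 is lowest at 200 µM, and Myo1c is high at 100 µM 4Ei-1 and with 4Ei-4 only.

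Trmo (gene ID 74753) is read by 3 probes, and the brightest was the most regular of the 5 genes over the dose. Its efficiency was -0.25, -0.18 and 0.13 without drug and 0.17, -0.20 and 0.02 at 10 µM. It was 0.54, 0.77 and 0.92 at 50 µM, 0.91, 0.47 and 0.81 at 100 µM, and 0.90, 1.19 and 0.82 at 200 µM. All 9 cultures at 50 µM or more were thus above all 6 at lower dose. With 4Ei-4 it was 0.28, 0.08 and 0.23, below every culture at 50 to 200 µM 4Ei-1. Uninduced cells had 0.26, 0.53 and 0.01, and the non-inducible line had 0.20, 0.24 and 0.14 with mifepristone and -0.24 without. By mean the order was no drug (-0.10), 10 µM (0.00), non-inducible (0.19), 4Ei-4 (0.20), uninduced (0.27), 100 µM (0.73), 50 µM (0.74) and 200 µM (0.97), with all 7 neighbouring pairs overlapping.

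Against no drug the efficiency of Trmo differed by 1.12 ± 0.22 at 200 µM and 0.88 ± 0.22 at 100 µM. On polysomes the signal was 6.34, 6.69 and 5.60 without drug and 7.08, 7.32 and 7.13 at 200 µM. In total RNA it was 6.59, 6.87 and 5.47 without drug and 6.18, 6.13 and 6.31 at 200 µM. The drug-free culture of batch 3 was the lowest of the 3 in both fractions, and total RNA overlapped between the groups while polysome RNA did not. With batch as a term the polysome difference was 0.62 ± 0.20 and the total difference -0.49 ± 0.16 at 200 µM.

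The other probes of Trmo did not follow the brightest one. The second probe, detected on 39 arrays, had efficiencies of 0.63, 0.65 and 0.39 without drug and 0.14, -0.06 and 0.37 at 200 µM. At 100 µM it had 0.21, -1.0 and -0.44, so it was lower with drug where the brightest probe was higher. Its differences were -0.57 ± 0.28 at 200 µM and -1.13 ± 0.28 at 100 µM. The third, detected on 17 arrays, differed by -0.29 ± 0.46 and -0.71 ± 0.46. All 3 probes are annotated to the same transcript, and over the 25 cultures the efficiencies of the first and the second correlated with r = -0.21. With the mean of all its probes in place of the brightest, Trmo differed by 0.09 in efficiency at 200 µM and by -0.32 at 100 µM, so its direction rests on 1 probe.

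Kctd1 (gene ID 106931), read by 1 probe, was lower in efficiency at both high doses. Efficiency was 0.60, 0.52 and -0.14 without drug. It was -0.96, -0.76 and -0.31 at 100 µM and -0.78, -0.44 and -0.68 at 200 µM, below every drug-free culture. The differences were -1.19 ± 0.23 at 100 µM and -1.14 ± 0.23 at 200 µM. With batch as a term total RNA was higher by 0.84 ± 0.20 and 0.95 ± 0.20, while polysome RNA differed by -0.35 ± 0.26 and -0.19 ± 0.26. Total signal was 6.64, 6.92 and 7.94 without drug and 7.34, 7.99 and 8.23 at 200 µM. The high drug-free value belonged to batch 3, in which the other total arrays read 7.48 to 8.03, so the unadjusted groups overlapped. At 200 µM within batch 1, with 1 culture a group, total RNA differed by 0.70 and polysome RNA by -0.68, of similar size. Within batch 2, with 1 drug-free and 2 treated cultures, total RNA differed by 1.19 and polysome RNA by 0.11. At 100 µM Kctd1 differed in batch 1 by 0.83 in total RNA and -0.72 on polysomes, and in batch 2 by 0.96 and -0.10.

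At 10 and 50 µM the mean efficiency of Kctd1 lay between those at high dose and without drug, but the groups differed in batch. Within batch 3 the 10 µM cultures lay 0.21 above the drug-free culture. At 50 µM Kctd1 differed from no drug by -0.64 in batch 1 and -0.94 in batch 2. Efficiency was 0.09, 0.11 and 0.00 at 10 µM and -0.04, -0.58 and -0.25 at 50 µM. With 4Ei-4 it was -0.01, -0.09 and -0.39. It was 0.34, 0.23 and -0.11 in uninduced cells, and 0.17, 0.18 and 0.44 in the non-inducible line with mifepristone and 0.32 without. Ordered by mean the groups ran from 100 µM (-0.68) and 200 µM (-0.63) over 50 µM (-0.29), 4Ei-4 (-0.16), 10 µM (0.07), uninduced (0.15) and non-inducible (0.26) to no drug (0.33), and only 4Ei-4 and 10 µM did not overlap among neighbours.

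Shox2 (gene ID 20429) had the highest mean efficiency of the 5 genes without drug and its lowest at 200 µM. Efficiency was 1.74, 0.93 and 1.05 without drug and 0.55, 0.12 and -0.48 at 200 µM. The groups did not overlap, and the difference was -1.13 ± 0.25, with -0.80 ± 0.28 on polysomes and 0.33 ± 0.21 in total RNA. Within batch 1 the signal differed by -0.34 on polysomes and 0.85 in total RNA, and within batch 2 by -1.11 and -0.01, so the fraction that differed more was not the same in both. When single cultures were left out the polysome difference of Shox2 ranged from -1.0 to -0.55 and the total difference from 0.01 to 0.64, the smaller polysome and the larger total difference without drug-free replicate 2. At 100 µM efficiency was 1.48, 1.02 and 0.39, with replicate 3 below the drug-free cultures, and the difference was -0.22 ± 0.25. Both fractions were low at 100 µM in replicates 2 and 3, of batch 2, with polysome signals of 7.22 and 6.20 against 8.25 in replicate 1. In batch 2 the drug-free culture read 7.56 on polysomes, against 8.19 and 8.61 in the others.

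Efficiency of Shox2 was 0.80, 0.90 and 0.93 at 10 µM, 0.77, 0.74 and 0.42 at 50 µM, and 0.82, 0.91 and 0.62 with 4Ei-4. All cultures at 50 µM and with 4Ei-4 were below all drug-free ones. It was 1.34, 0.89 and 1.15 in uninduced cells. The non-inducible line had 0.87, 1.29 and 0.86 with mifepristone and 1.40 without. By mean the order was 200 µM (0.06), 50 µM (0.64), 4Ei-4 (0.78), 10 µM (0.88), 100 µM (0.97), non-inducible (1.01), uninduced (1.13) and no drug (1.24), with all 7 neighbouring pairs overlapping. A second probe, also detected on all 50 arrays, had 1.03, 0.16 and 1.25 without drug and -0.78, -0.42 and -0.56 at 200 µM, a difference of -1.0 ± 0.33. This probe was also low in replicates 2 and 3 at 100 µM, with -0.69 and -0.81 beside 0.81 in replicate 1. The efficiencies of the 2 probes correlated with r = 0.58 over the 25 cultures, while their total signals had r = -0.08. The third probe was detected on 4 arrays.

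Myo1c (gene ID 17913), as read by its brightest probe, stood apart from the other genes in dose. Efficiency was 0.32, 0.32 and 0.66 without drug, 0.50, 0.33 and 0.58 at 10 µM and 0.27, 0.40 and 0.03 at 50 µM. At 100 µM it was 1.51, 1.33 and 1.54, above all cultures of every other group, and at 200 µM it was 0.78, 0.63 and -0.12. The difference from no drug was 1.12 ± 0.23 at 100 µM and 0.10 ± 0.23 at 200 µM, where without replicate 3 of the treated cultures it was 0.33. At 100 µM it was made of -0.83 ± 0.22 in total RNA and 0.29 ± 0.21 on polysomes. Total signal was 6.73, 6.54 and 5.35 without drug, 5.84, 5.86 and 5.60 at 100 µM and 6.51, 6.30 and 6.84 at 200 µM. The drug-free culture of batch 3 was again the lowest in total RNA, so the groups overlapped at 100 µM before the batch term.

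With 4Ei-4 the efficiency of Myo1c was 1.25, 1.30 and 1.02. It was 0.78, 0.73 and 0.75 in uninduced cells and 0.36, 0.38 and 0.61 in the non-inducible line with mifepristone, with 0.53 without it. By mean the order was 50 µM (0.23), 200 µM (0.43), no drug (0.44), non-inducible (0.45), 10 µM (0.47), uninduced (0.75), 4Ei-4 (1.19) and 100 µM (1.46), and the 3 highest steps, from 10 µM upwards, did not overlap. The other probes of Myo1c, annotated to other transcripts of the gene, were detected on 30 and 23 arrays. At 100 µM they differed from no drug by 0.24 ± 0.34 and 0.51 ± 0.36 in efficiency. At 200 µM they differed by 0.65 ± 0.34 and 0.06 ± 0.36, so the second probe did not share the higher value at 100 µM.

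**Figure D2:**
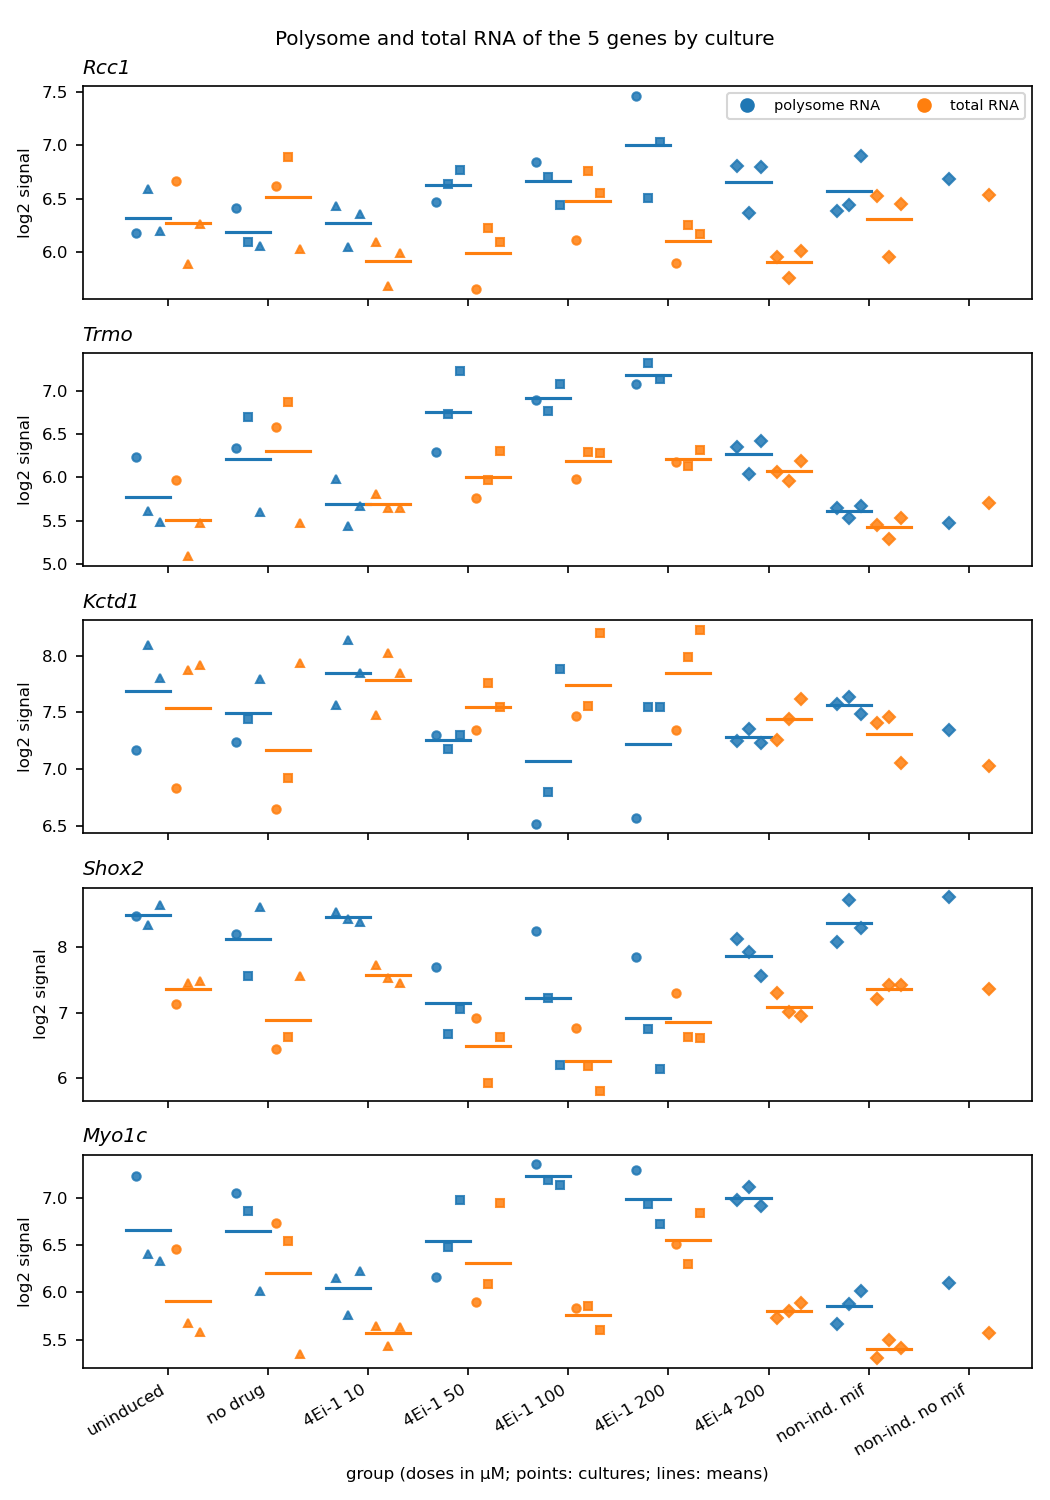
Log2 signal on polysomes (blue) and in total RNA (orange) of the 5 genes in each culture, by group, with doses in µM; points are cultures, shapes mark processing batches as circles, squares, triangles and diamonds for batches 1 to 4, and lines are group means. Polysome signals of Rcc1 and Trmo at 200 µM lie above the drug-free ones. Shox2 on polysomes is lower in batch 2 than in batch 1 at 100 and 200 µM. Myo1c at 100 µM is below 6 in total RNA, as are its means in uninduced, 10 µM, 4Ei-4 and non-inducible cells.

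All of these differences were read against the same 3 drug-free cultures, 1 from each of batches 1, 2 and 3. In the comparison at 200 µM 0.403% of genes tested were called in efficiency, 0.0158% in polysome signal and 0.19% in total signal, and at 100 µM 0.316%, 0.0949% and 0.482%. With the replicate number as a block 14 genes in place of 40 were called in efficiency at 100 µM, where Kctd1 then differed by -1.19 and Myo1c by 1.14. As the genes were chosen from those calls, nothing is read from their own share. Just inside the limit at 200 µM lay Shox2, at -1.13. The next genes detected on every array fell just outside, Larp4b at -0.94 and Ccdc120 at 1.01. At 100 µM Myo1c lay inside at 1.12, and Cdv3 at -1.22 and Vegfa at -1.48 lay outside, with larger differences and larger errors. Batches 1 and 2 each held both groups. At 200 µM Rcc1 differed in efficiency by 1.76 in the first and 1.35 in the second, Trmo by 1.14 and 1.18, Kctd1 by -1.37 and -1.08, and Shox2 by -1.19 and -1.10. Myo1c differed by 1.19 and 1.11 at 100 µM, but by 0.46 and -0.06 at 200 µM. When single cultures were left out Myo1c ranged from -0.08 to 0.33 at 200 µM, so its sign there turned with 1 culture.

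The size of the differences depended on the scaling. With array medians set equal in place of quantile normalization, the median efficiency difference over all genes was -0.29 at 200 µM and -0.35 at 100 µM, beside -0.03 and -0.02. Rcc1 then differed by 0.97, Trmo by 0.58, Kctd1 by -1.69 and Shox2 by -1.68 at 200 µM, and Myo1c by 0.35 at 100 µM and -0.39 at 200 µM. Relative to all genes the first 4 thus kept their order, and at 200 µM Myo1c lay near the median gene. With the log2 values that the authors deposited, the differences at 200 µM were 0.51 in Rcc1, 0.37 in Trmo, -0.52 in Kctd1 and -0.49 in Shox2, and that of Myo1c at 100 µM was 0.33. Without background correction they were 0.75, 0.54, -0.64, -0.62 and 0.51 in the same order. The mean of all probes gave 0.63 for Myo1c at 100 µM.

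At the lower doses, read against the same cultures with batch as a term, efficiency at 50 µM differed by 1.33 ± 0.27 for Rcc1, 0.89 ± 0.22 for Trmo, -0.80 ± 0.23 for Kctd1, -0.55 ± 0.25 for Shox2 and -0.10 ± 0.23 for Myo1c. At 10 µM the differences lay between -0.26 ± 0.28 (Shox2) and 0.13 ± 0.30 (Rcc1). Induced cells without drug differed from uninduced ones by -0.31 ± 0.22 for Trmo, -0.22 ± 0.23 for Myo1c and 0.16 ± 0.25 for Shox2, and by 0.01 ± 0.27 for Rcc1 and -0.01 ± 0.23 for Kctd1.

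At the matched dose of 200 µM, 4Ei-1 and 4Ei-4 were compared for the 5 genes, in cultures of different batches, so compound and batch cannot be told apart. The efficiency with 4Ei-1 minus that with 4Ei-4 was 0.79 ± 0.24 for Trmo, with no overlap between the cultures. It was -0.69 ± 0.30 for Shox2 and -0.73 ± 0.26 for Myo1c, again with no overlap. It was -0.52 ± 0.27 for Kctd1, whose cultures did not overlap either, and 0.26 ± 0.36 for Rcc1, whose cultures did. The 4Ei-1 cultures took part in choosing the genes, so these values are descriptions, and no test or interval is given.

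The first test outside the chosen comparisons set induced cells with 4Ei-4 against the non-inducible line, both with mifepristone and both in batch 4. Cell line and compound differ together here and cannot be told apart. Over all genes efficiency was called in 21.4%, polysome signal in 38.4% and total signal in 30.1%. In efficiency 1 of the 5 genes was called, so their share was close to the background.

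That gene was Myo1c, which was higher in efficiency by 0.75 ± 0.16 (limma, adjusted p = 0.00386, higher in 9 of 9 pairs of cultures). On polysomes its signal was 6.98, 7.11 and 6.91 with 4Ei-4 and 5.66, 5.88 and 6.02 in the non-inducible line, a rise of 1.15 ± 0.19 (limma, adjusted p = 0.000216). In total RNA it was 5.73, 5.80 and 5.89 against 5.31, 5.50 and 5.41, a difference of 0.40 ± 0.21 that did not pass (limma, adjusted p = 0.187). The groups did not overlap in either fraction. The calls in efficiency and on polysomes belong to the brightest probe. On polysomes the second probe differed by 0.04 ± 0.17 and the third by -0.19 ± 0.13 (limma, adjusted p = 0.900 and 0.281). In efficiency the second probe differed by 0.23 ± 0.20 (limma, adjusted p = 0.513). The third fell by 0.82 on the log2 scale (SE 0.22; limma, adjusted p = 0.0146), with efficiencies of -1.0, -1.14 and -0.90 against -0.08, -0.37 and -0.14, and it was detected on 3 of 25 polysome arrays. With the mean of the 3 probes the difference was 0.05 (limma, adjusted p = 0.854).

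Trmo rose in both fractions alike. Polysome signal was 6.35, 6.04 and 6.42 with 4Ei-4 and 5.65, 5.53 and 5.66 in the non-inducible line, a rise of 0.65 ± 0.19 (limma, adjusted p = 0.0129). Total signal was 6.06, 5.96 and 6.19 against 5.45, 5.29 and 5.52, a rise of 0.65 ± 0.17 (limma, adjusted p = 0.00692). Neither fraction overlapped between the groups, and efficiency differed by 0.00 ± 0.17 with a 95% interval of -0.36 to 0.37. The polysome call was lost without replicate 1 (limma, adjusted p = 0.0513) or replicate 3 (0.0584) of the 4Ei-4 cultures, with no batch term (0.0666), with medians set equal (0.177) and with the authors' log2 values (0.124), and both calls were lost with the mean of all probes (0.0626 on polysomes and 0.0648 in total RNA).

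The remaining genes were not called in efficiency with the brightest probe. Rcc1 differed by 0.48 ± 0.23 (limma, adjusted p = 0.160) and Kctd1 by -0.42 ± 0.18 (limma, adjusted p = 0.104), each with no overlap between the groups. Shox2 differed by -0.23 ± 0.18 (limma, adjusted p = 0.462). On polysomes Shox2 differed by -0.49 ± 0.19 (limma, adjusted p = 0.0578). It passed without replicate 1 of the 4Ei-4 cultures (-0.62, limma, adjusted p = 0.0415) or of the non-inducible line (-0.63, 0.0338), and with medians set equal (-0.85, 0.0414). It also passed without background correction (-0.34, limma, adjusted p = 0.0478), over genes detected on every array (-0.49, 0.0388) and with batch as a fixed term (-0.49, 0.04997). Total RNA of Shox2 passed with medians set equal (-0.65, limma, adjusted p = 0.0496). With the mean of its probes the efficiency of Shox2 passed too, at -0.50 (limma, adjusted p = 0.0185). The total RNA of Rcc1 passed with medians set equal, at -0.87 (limma, adjusted p = 0.00595), and without replicate 2 of the non-inducible line, at -0.58 (0.0443). The second probe of Shox2, fitted after the data were seen, had efficiencies of -0.17, 0.03 and 0.06 with 4Ei-4 and 1.03, 1.78 and 1.11 in the non-inducible line. That was a fall of 1.33 on the log2 scale (SE 0.24; limma, adjusted p = 0.00091), made mostly of a rise of 0.90 ± 0.19 in total RNA (limma, adjusted p = 0.00163), whereas the brightest probe of Shox2 differed by -0.27 ± 0.18 in total RNA.

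**Figure D3:**
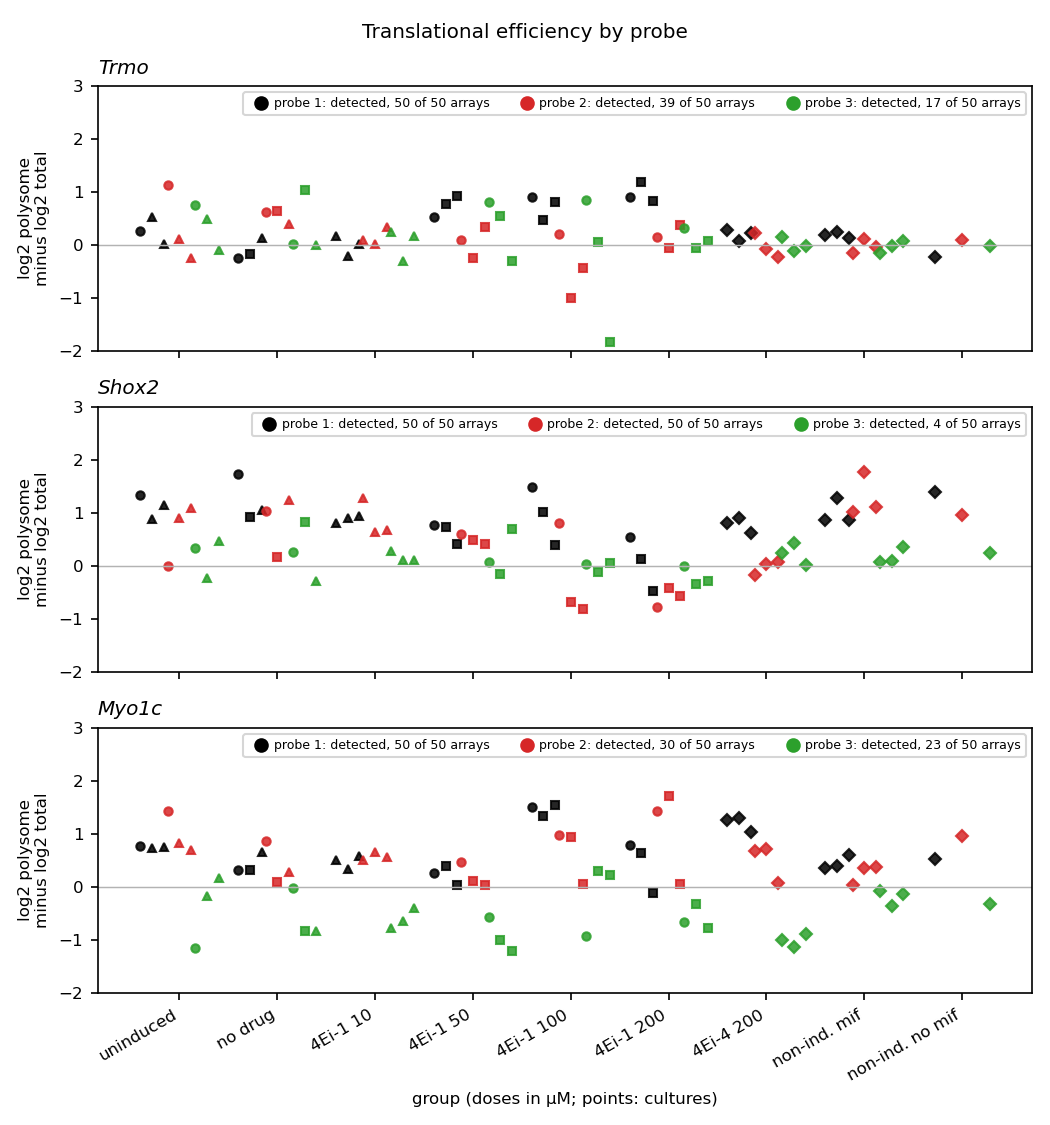
Translational efficiency (log2 polysome minus log2 total signal) of each probe of Trmo, Shox2 and Myo1c in each culture, by group, with doses in µM; colours are probes, with the number of arrays that detected each, and shapes mark processing batches. The brightest probe of Trmo lies above its other probes at 200 µM 4Ei-1, both bright probes of Shox2 are low there, and the third probe of Myo1c lies below 0 with 4Ei-4 where the first lies above 1.

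The second test compared 4Ei-1 at 50 µM with 10 µM in induced cells. These doses share no batch, so the fit rests on a random batch term, and it called 0 genes in any of the 3 measures (limma; an unadjusted p below 0.05 was found for efficiency in 596 genes, for RNA on polysomes in 890 and for total RNA in 985). As read by the brightest probes, Trmo had the clearest difference of the 5, 0.67 ± 0.28 in efficiency. Its 95% interval was 0.08 to 1.25 (limma, adjusted p = 0.999). Rcc1 differed by 0.75 ± 0.36 (-0.02 to 1.51), Kctd1 by -0.41 ± 0.28 (-1.0 to 0.18), Shox2 by -0.35 ± 0.28 (-0.93 to 0.24) and Myo1c by -0.25 ± 0.26 (-0.80 to 0.30). Rcc1, Trmo, Kctd1 and Shox2 did not overlap between the doses, in the direction they had at 200 µM, and Myo1c overlapped. In such raw values dose and batch cannot be told apart. The other probes of Trmo and Shox2 did not all share the direction of the brightest. In efficiency the Trmo probe detected on 39 arrays differed by -0.66 ± 0.36, and that detected on 17 by 0.22 ± 0.37. The other Shox2 probe detected on all 50 arrays differed by 0.18 ± 0.38, and that detected on 4 by -0.12 ± 0.36. For Shox2 polysome signal was 7.69, 6.67 and 7.05 at 50 µM and 8.53, 8.43 and 8.38 at 10 µM, and total signal 6.92, 5.94 and 6.63 against 7.73, 7.53 and 7.45. Both fractions were lower without overlap, by -0.97 ± 0.34 (limma, adjusted p = 0.607) and -0.74 ± 0.29 (0.556). Without replicate 1 at 50 µM the total difference of Shox2 was -1.21 (limma, adjusted p = 0.0372). With no batch term Shox2 was called on polysomes (-1.31, limma, adjusted p = 0.0194) and in total RNA (-1.07, 0.0110), and Trmo on polysomes (1.06, 0.0243).

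The third test compared induced cells at 10 µM with uninduced cells. Over all genes it called 0 for efficiency (limma; 533 had an unadjusted p below 0.05), 1.12% of genes in polysome signal and 1.71% in total signal. None of the 5 genes was called in any of these measures. Their efficiencies differed by 0.16 ± 0.25 for Rcc1 (95% interval -0.36 to 0.68), -0.28 ± 0.19 for Trmo (-0.68 to 0.11), -0.01 ± 0.19 for Kctd1 (-0.41 to 0.39), -0.18 ± 0.19 for Shox2 (-0.58 to 0.22) and -0.27 ± 0.18 for Myo1c (-0.64 to 0.10). Myo1c did not overlap, with 0.50, 0.33 and 0.58 at 10 µM below 0.78, 0.73 and 0.75 in uninduced cells.

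The fourth test asked how much of each mRNA was on polysomes relative to total RNA in the 16 cultures outside the chosen comparisons, as a mean over their 5 groups of 3 with the lone non-inducible culture as a group of its own in the fit. Over all genes 32.9% were called. Shox2 was enriched on polysomes by 0.90 ± 0.14 (limma, adjusted p = 0.000111), at percentile 93.9 of all genes, and Myo1c by 0.62 ± 0.13 (limma, adjusted p = 0.0014), at percentile 85.8. Rcc1 had 0.35 ± 0.19 (limma, adjusted p = 0.183), Trmo 0.29 ± 0.14 (0.143) and Kctd1 0.02 ± 0.14 (0.970), at percentiles 74.7, 71.6 and 43.7. The 2 of 5 genes called are a share near the background. The second probe of Shox2 had 0.59 ± 0.19 (limma, adjusted p = 0.0253) and that of Myo1c 0.54 ± 0.16 (0.0131). The third probe of Myo1c had -0.72 ± 0.18 (limma, adjusted p = 0.00483), and the mean of its probes 0.15 (0.259). Without replicate 1 of the uninduced cultures Rcc1 was called as well, at 0.47 (limma, adjusted p = 0.0199), and without replicate 1 at 50 µM Trmo was, at 0.30 (0.0422). With medians set equal both were called, at 0.52 (limma, adjusted p = 0.0304) and 0.34 (0.0488), and with no batch term as well.

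**Figure D4:**
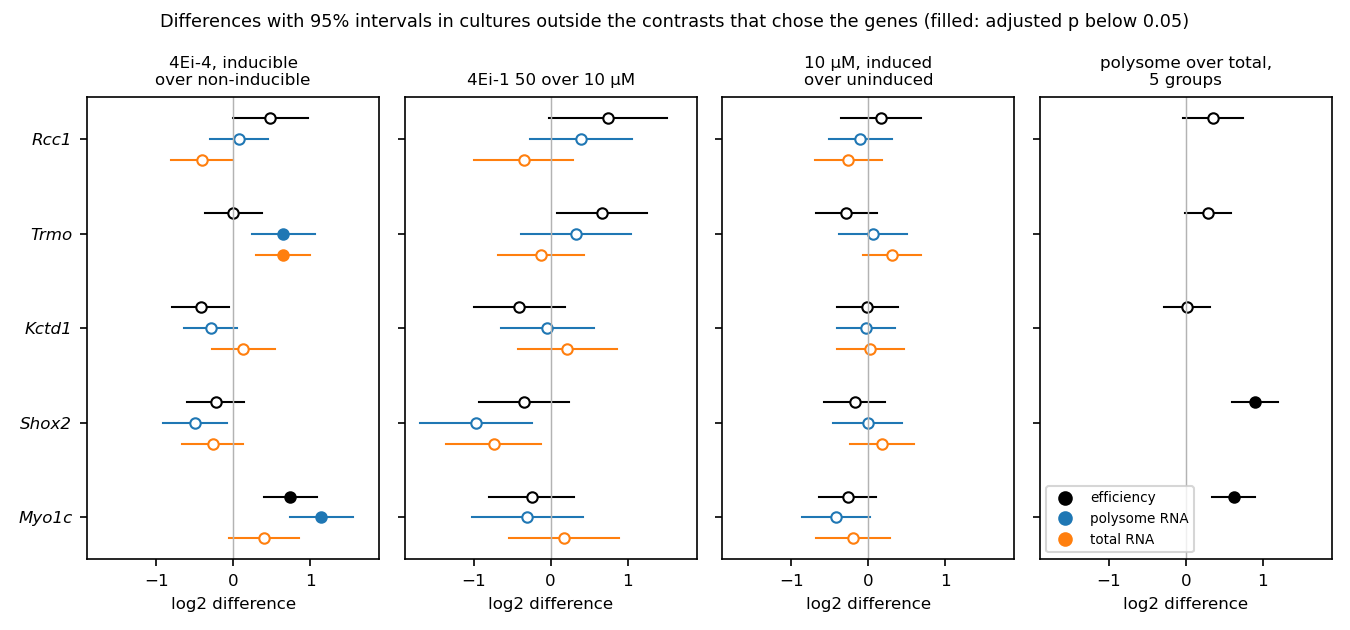
Log2 differences (points) with 95% intervals (lines) of the 5 genes in efficiency (black), polysome RNA (blue) and total RNA (orange) for the 4 tests in cultures outside the comparisons that chose them; filled points have an adjusted p below 0.05. Filled points are Myo1c in efficiency and on polysomes and Trmo in both fractions for 4Ei-4 in inducible over non-inducible cells, and Shox2 and Myo1c for polysome over total RNA.

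The efficiencies of the 5 genes were compared with each other over the 25 cultures, which share batches and, in part, the groups that chose the genes. Trmo and Kctd1 ran most opposite (r = -0.75), followed by Trmo and Shox2 (r = -0.60) and Rcc1 and Kctd1 (r = -0.51). Myo1c had r between -0.35 and 0.22 with the other 4. Among 4806 other genes detected on every array, those most like Trmo were Acads (r = 0.84), Klhdc4 (0.83) and Cc2d1a (0.82). Those most like Kctd1 were 1700025G04Rik (0.84), Hnrnpab (0.80) and Rpp30 (0.79). Rab22a (0.75), Ndufs4 (0.74) and Akap10 (0.73) were most like Shox2, Tpra1 (0.73), Reep4 (0.68) and Mipep (0.68) most like Myo1c, and Jmjd8 (0.65), the tRNA methyltransferase gene Trmt2a (0.63) and Atxn7l2 (0.60) most like Rcc1.

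The other genes of each pathway were counted in the same fits, in which 0.403% of all genes were called in efficiency at 200 µM and 0.316% at 100 µM. Lists of this size would hold few or no calls at such shares, so a count of 0 says nothing about a list. At 200 µM and at 100 µM, 0 of 27 genes of the Ran cycle and nuclear transport, 0 of 51 tRNA modification enzymes, 0 of 28 homeobox factors of limb and mesenchyme and 0 of 15 unconventional myosins and light chains were called in efficiency. The smallest p at 200 µM among those detected on every array belonged to the importin Ipo4 (0.71 ± 0.23), the tRNA methyltransferase Trmt2a (0.79 ± 0.20), the homeobox repressor Zeb1 (-0.69 ± 0.22) and the filopodial myosin Myo10 (0.48 ± 0.39), none of which passed. Of 17 tested genes of the KCTD family and AP-2 factors, 1 was called at each dose, Kctd4, higher by 1.14 ± 0.18 and 1.35 ± 0.18 (limma, adjusted p = 0.0266 and 0.00463). It was detected on 2 of the 12 arrays compared at either dose. Median differences at 200 µM were 0.07 for the Ran list, -0.11 for tRNA enzymes, -0.07 for KCTD genes, -0.18 for homeobox genes (10 of 28 above 0) and -0.05 for myosins, beside -0.03 over all genes.

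Between 4Ei-4 in inducible cells and the non-inducible line more of these genes were called in efficiency. In the Ran list 2 of 27 rose and 2 fell: the importin Ipo4 (1.18 ± 0.20) and the exportin of small RNA precursors Xpo5 (1.24 ± 0.25) rose, and Ranbp1 (-1.21 ± 0.30), which helps Ran hydrolyse GTP, and Ran itself (-0.88 ± 0.30) fell. Of 51 tRNA enzymes 4 rose, among them the guanosine methyltransferase Trmt1 (1.09 ± 0.21) and the Elongator subunit Elp2 (0.80 ± 0.21), and 9 fell, among them Osgep (-0.80 ± 0.18) and the tRNA methyltransferase Mettl2 (-0.76 ± 0.18). In the KCTD list 5 of 17 fell and 0 rose. The fallers included Tnfaip1 (-0.96 ± 0.21), Kctd20 (-0.87 ± 0.20), the AP-2 factor Tfap2a (-0.73 ± 0.17) and the ubiquitin ligase scaffold Cul3 (-0.60 ± 0.19), and the list's median was -0.40 beside 0.00 over all genes. Of 28 homeobox genes 6 fell and 0 rose, with Tgif1 (-2.54 ± 0.34) and Hoxc6 (-1.06 ± 0.26) among them. Of 15 myosin genes 5 rose, among them Myo6 (1.28 ± 0.22), Myo9b (1.33 ± 0.24) and Myo1e (1.27 ± 0.26), and the calmodulin gene Calm2 fell (-1.33 ± 0.33), with a list median of 0.25. The adjusted p values of the genes named here lay between 0.000139 (Tgif1) and 0.0485 (Ran) in limma, and the background was 11.8% of genes higher and 9.66% lower.

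On polysomes relative to total RNA, 20 of 51 tRNA modification enzymes were enriched and 0 depleted, against 19.2% and 13.8% of all genes. Mettl1 (1.46 ± 0.17), Trmt61a (1.22 ± 0.14) and the pseudouridine synthase Pus1 (1.15 ± 0.14) had the smallest adjusted p (limma, at most 1.03e-05). The median of the list was 0.32 beside 0.06 over all genes. In the Ran list 8 of 27 were enriched, with Tnpo3 at 1.46 ± 0.24, and 2 depleted, Rangrf at -1.24 ± 0.18 and Ipo7 at -0.94 ± 0.15, the latter detected on 13 of 30 arrays. Of 28 homeobox genes 6 were enriched, with Prrx1 at 1.78 ± 0.25, and 3 depleted. Of 17 KCTD and AP-2 genes 2 were enriched, Kctd10 at 1.25 ± 0.15 and Shkbp1 at 0.89 ± 0.15, and of 15 myosin genes 2, Myo10 at 1.12 ± 0.24 and Myo18a at 0.82 ± 0.28, with 0 depleted in either list.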

How the data were processed

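Per the labels, 25 cultures gave 50 Illumina bead arrays of polysome or total RNA. The deposited non-normalized table holds, per the file headers, an intensity and a detection p-value for 45281 probes. The authors also deposited log2 values, made by a normalization that the sources do not give; their array medians were 7.02 to 7.06. Intensities were background-corrected with limma 3.58.1 (R 4.3.3; normexp by detection p, offset 16) and then quantile-normalized across the arrays, in log2 units. The platform table gave 1 symbol for 34885 probes, several for 18 and did not list 10378; 34807 matched the reference gene table. The brightest probe stood for each of 19057 genes, and the 12644 with a detection p under 0.05 on 3 or more arrays were tested. The number of arrays limits the precision.

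Efficiency is log2 polysome minus log2 total signal of a culture. Comparisons with drug-free cultures used all 25 cultures with batch as a fixed term (a random one where 4Ei-4 was involved). The 4 tests used the 16 other cultures, with batch as a random effect (duplicateCorrelation with statmod 1.5.0; consensus correlation 0.555 for efficiency, 0.723 for polysome RNA, 0.553 for total RNA). Adjusted p is limma's, by Benjamini-Hochberg over all tested genes, called below 0.05. The efficiency fits at 200 µM against no drug and for 4Ei-4 against the non-inducible line were tested on simulated data. The other comparisons and the fits of polysome and total RNA were not. The 5 genes and the 5 lists were chosen with earlier results of these data known. Named genes are the 5, the 3 genes most correlated with each, and from each list up to 4 called genes by adjusted p or, with none called, that of lowest p among genes every compared array detected. Other probes were fitted after the data were seen. Deviations of same-numbered cultures from their group means correlated at 0.13 to 0.22 in efficiency at 100 µM (other numbers -0.14 to -0.01) and at 0.22 to 0.45 on polysomes at 200 µM (-0.34 to 0.03), but at -0.04 to 0.31 in efficiency at 200 µM. In these groups cultures numbered 1 were all in batch 1 and those numbered 2 in batch 2; the pairing comes from these correlations, not from the labels.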

Additional observations from a re-analysis of the deposited data

How the results depend on the processing

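The counts of genes called for efficiency, polysome RNA and total RNA at 200 µM (51, 2 and 24) and at 100 µM (40, 12 and 61) moved with most choices; the cause was not tested. With array medians set equal in place of quantile normalization they were 718, 0 and 0 at 200 µM and 1109, 0 and 6 at 100 µM. In efficiency 717 of the 718 and 1098 of the 1109 were then lower, against 34 of 51 and 26 of 40. Without background correction they were 11, 7 and 3, and 21, 0 and 12. With the authors' log2 values they were 12, 0 and 0, and 13, 0 and 2. With no batch term they were 20, 9 and 2, and 2, 4 and 0. With batch as a random block they were 28, 18 and 4 at 200 µM, and 2 in efficiency and 0 in total RNA at 100 µM. Over genes detected on every array, a test of fewer genes, they were 1, 0 and 0, and 0, 1 and 4. With no filter on dim probes 27 and 23 were called on polysomes. The mean of all probes gave 9 on polysomes at 200 µM, and 23, 3 and 30 at 100 µM. Leaving out a culture gave 9 to 122, 0 to 61 and 34 to 147 at 200 µM, and 21 to 168, 2 to 66 and 54 to 181 at 100 µM. With the mean of its probes Trmo changed sign, to -0.0088 on polysomes at 200 µM and at 100 µM to -0.32 in efficiency, to -0.20 in polysome signal and to 0.12 in total signal.

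With a replicate block the counts in efficiency and total RNA were 21 and 14 at 200 µM, and the 3 counts at 100 µM were 14, 3 and 19. Every same-numbered pair correlated above 0.1 only in efficiency at 100 µM and on polysomes at 200 µM, where the block left 2 genes called as without it. In the other measures not every such pair did. In the drug-free, 100 µM and 200 µM groups cultures numbered 1 shared a batch in every measure, and so did those numbered 2. The block moved no other count by over 1.5 times and changed no call of the 5 genes in the 4 tests.

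For 4Ei-4 against the non-inducible line, 1796 genes had a call in efficiency with no batch term in place of 2712, and leaving out a culture gave 1687 to 2069 for efficiency, 4050 to 4366 for polysome RNA and 2952 to 3316 for total RNA. With medians set equal 31.7% of polysome calls and 22.1% of total RNA calls were higher, against 51.4% and 51.6%. For 50 against 10 µM, where 0 were called, no batch term gave 35, 1533 and 1478 and a fixed batch term 259, 581 and 6. No filter gave 4 in total RNA. Leaving out a culture gave 0 to 0, 0 to 30 and 0 to 496. For 10 µM against uninduced, medians set equal gave 1 in efficiency and 141 in total RNA in place of 216, with 134 of 141 higher against 175 of 216, and 97.4% against 85.9% of polysome calls. No batch term gave 78 on polysomes in place of 142, and leaving out a culture gave 0 to 0, 64 to 138 and 94 to 197. For polysome against total RNA, no batch term gave 6899 in place of 4166 and leaving out a culture 3637 to 5243. With medians set equal 69.3% of calls were higher, against 58.2%. A fixed batch term was not run there.

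Outside the comparisons that chose the genes, the polysome rise of Myo1c kept its call under all alternatives with its brightest or averaged probes. In efficiency Myo1c lost its call among these with the mean of probes only. The rise was not shared by its other probes fitted alone. Between 4Ei-4 and the non-inducible line, those detected on 30 and 23 arrays differed by 0.04 ± 0.17 and -0.19 ± 0.13 on polysomes. In efficiency they differed by 0.23 ± 0.20 and -0.82 ± 0.22. Probe signals near background limit the dimmer probes of Trmo and Myo1c. The brightest probes of Trmo, Myo1c and Rcc1 were detected on all 50 arrays but were not far above it. Their median intensities were 159, 173 and 185, beside 114 for the Shox2 probe detected on 4 arrays.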
